A study of Mus musculus with 7 samples.

Results

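Complement and coagulation factors are plasma proteins that the liver secretes, and the transcripts of 45 of them, from the first proteases of the complement cascade to the inhibitors of fibrinolysis, were the subject here. A gene was a member if its Ensembl identifier mapped in the GENCODE mouse annotation to 1 of the 45 listed symbols, and 44 of the 45 were among the 14851 genes of the deposited table. The exception was *Klkb1*, which encodes plasma prekallikrein and was not analysed here. Of the members, 21 belong to complement and 23 to coagulation and fibrinolysis.

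Complement is a chain of plasma proteases that ends in the deposition of C3 fragments and in a pore of C5 to C9 in the target membrane. The classical, lectin and alternative pathways meet at C3. Coagulation starts from tissue factor and factor VII or from the contact system, meets at factor X and prothrombin, and is held back by antithrombin, heparin cofactor II and the protein C system, while plasmin dissolves the clot. Hepatocytes make most of these proteins, and macrophages, endothelium and fat make a few of them.

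The libraries came from livers of 4 Albumin-Cre; p53 FL/FL mice (FL1 to FL4) and 3 Albumin-Cre; p53 WT/WT mice (WT1 to WT3). All were male mice backcrossed to C57BL/6J, about 70 days old, taken 8 h after 1 intraperitoneal injection of carbon tetrachloride (CCl4, 1 mL/kg of a 20% stock in corn oil), which hepatocytes convert into reactive radicals. Both genotypes carried Cre under the *Albumin* promoter, so that floxed *Trp53* is deleted in the liver. The study describes the deletion as specific to the liver and, in places, to hepatocytes. Which other liver cells keep p53 is not given. Untreated livers were not analysed here. The comparison asks what the loss of liver p53 changed in the injured liver. Some mice of both genotypes carried a Rosa26 LSL-tdRFP reporter, and which ones is not given. Per the study's methods, mice of an experiment were treated together and matched for age and litter as far as possible. The source names of all WT mice share 1 prefix that no FL mouse has, what it stands for is not given, and it cannot be told apart from the genotype. The values are counts per gene normalised and rounded by the authors, here called normalised counts.

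*Trp53* had normalised counts of 131, 130, 217 and 110 in FL1 to FL4 and 876, 688 and 831 in WT1 to WT3. It was lower in every FL liver than in any WT liver, at -2.47 on the log2 scale, FL minus WT (SE, the standard error, 0.23, adjusted p from limma 0.0447). About 11.9 to 19.5 M reads per liver were estimated to lie on genes. WT2 and FL3 stood apart from the other livers: along principal component 1 (66.7% of the variance) they lay at 82.0 and 29.2 and the other 5 livers between -25.6 and -19.1. In bulk tissue a lower share of a cell type and less RNA per cell cannot be told apart. The 7 hepatocyte markers were all present, with a summed normalised count of 1454443 to 1905156 in FL and 1256591 to 1476624 in WT livers, of which *Alb* made up 76.1% to 81.3%. Single markers did not all follow the sum: *Cyp2e1* was at 8415 in WT2 and 17110 in FL3 and at 37306 to 56150 in the other livers, and *Ttr* and *Apoa1* were higher in every FL liver than in any WT liver (log2 fold changes 0.39 and 0.65, limma unadjusted p = 0.0458 and 0.0109). The 7 Kupffer cell and macrophage markers summed to 11897 in WT2, 7385 in FL3 and 4514 to 5750 in the other livers. The 6 stellate cell and fibroblast markers summed to 6978 in WT2, 3219 in FL3 and 2425 to 2736 elsewhere, and no gene of these lists was at 0 in any liver. Neutrophil markers summed to 42 to 173, platelet markers to 82 to 116 and bile duct markers to 603 to 1482 over the 7 livers. Among the bile duct markers *Krt19* was at 6 to 21 in FL and 26 to 128 in WT livers, *Krt7* at 2 to 18 and 28 to 33, and *Sox9* in the other direction at 297 to 763 and 204 to 261 (limma unadjusted p = 0.00464, 0.0205 and 0.00494, adjusted p = 0.999 for each). In 3 of the 40 marker genes tested every FL liver was above every WT liver and in 2 below, beside 2.77% and 1.98% of all genes tested. The part of these markers in the members' values was not tested.

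No complement or coagulation transcript passed an adjusted p under 0.05 between FL and WT livers (limma, 0 of 44 members, against 0.0159% of the 12545 genes tested). The log2 fold change, FL minus WT, was within 1.25-fold in either direction for 39 of the 44 members, beside 82.3% of all genes tested. Its 95% interval lay within 2-fold for 42 members and within 1.5-fold for 30, beside 77.7% and 50.1% of all genes tested. It was above 0 for 34 members and below 0 for 10, with a median of 0.11, beside 51.6% above 0 and a median of 0.01 over all genes tested. After quantile normalisation 26 members were above 0. Many other abundant transcripts also lay on the FL side. Of the 1567 genes with a mean of at least 1601 normalised counts, which is the members' lower quartile, 75.2% were above 0, with a median of 0.08. Of the 33 members with such a mean, 28 were above 0 (84.8%), with a median of 0.15.

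At an unadjusted p under 0.05 there were 4 members, *F11*, *C6*, *C8a* and *C1s1*, all with higher means in FL livers, where 3.2% of all genes tested reached that level, 1.59% with a higher mean in FL livers and 1.6% with a lower one. Their adjusted p was 0.999 in each case (limma). In 8 members, *C1ra*, *C1s1*, *C8a*, *Serping1*, *F7*, *F11*, *F2* and *Plg*, every FL liver was above every WT liver, against 2.77% of all genes tested. Of the 33 members with a mean of at least 1601, 6 were among these (18.2%), against 5.42% of the 1567 abundant genes. After quantile normalisation every FL liver was above every WT liver in 2 of the 44 members, and in 19 without WT2. The share of all genes was not taken in these settings, and fewer livers make non-overlap more frequent by construction. In 0 members was every FL liver below every WT liver (1.98% of all genes tested). All 44 members had a mean of at least 10 and entered the test. The standard errors had a median of 0.14 on the log2 scale. Leaving out 1 liver moved the log2 fold change by over 1.5 times, or turned it, in 35 of the 44 members, in 29 of them without WT2 and in 24 without FL3. As a ratio, this measure also counts small shifts of members near 0, such as *Masp1* from 0.021 to 0.011 without FL3. The share of all genes was not taken, so these counts show nothing particular to the members. The p-values measure the spread between these mice. *C1s1*, *C2*, *Masp1*, *Masp2*, *Hc*, *C8a*, *C8g*, *F5*, *Serpinc1*, *Serpind1* and *Plg* overlap a gene on the opposite strand, and whether the counting used the strand is not given in the sources used here.

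**Figure D1:**
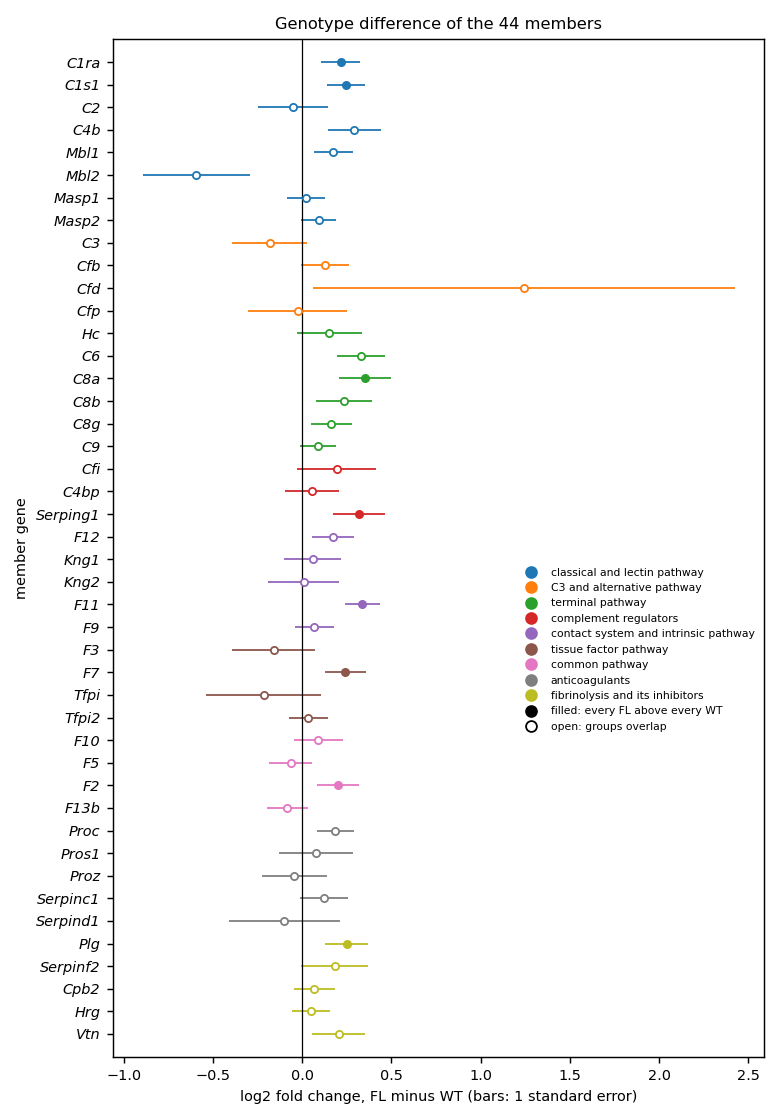
Log2 fold change, FL minus WT, of log2(normalised count + 1) for each of the 44 members in cascade order, with bars of 1 standard error from limma. Colours mark the role, and filled points are the 8 members in which every FL liver was above every WT liver. Points of 39 members lie within 1.25-fold of equal levels, and Cfd has the widest bar.

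The level per kb of exon spanned a wide range among the members. *C3*, the protein on which all complement pathways converge, was highest with a mean over the 7 livers of 23295 normalised counts per kb, followed by *Vtn* (19058), *Plg* (8445) and *F2* (6319). *Tfpi*, the tissue factor pathway inhibitor, was lowest at 12.5 per kb, below *Cfd* (21.5) and *F3* (25.4). The members together took 2.50% to 3.18% of the normalised counts of the FL livers and 2.465% to 3.35% of those of the WT livers, so the groups overlapped. *C3* alone took 0.586% to 0.864% in FL livers and 0.705% to 1.14% in WT livers.

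**Figure D2:**
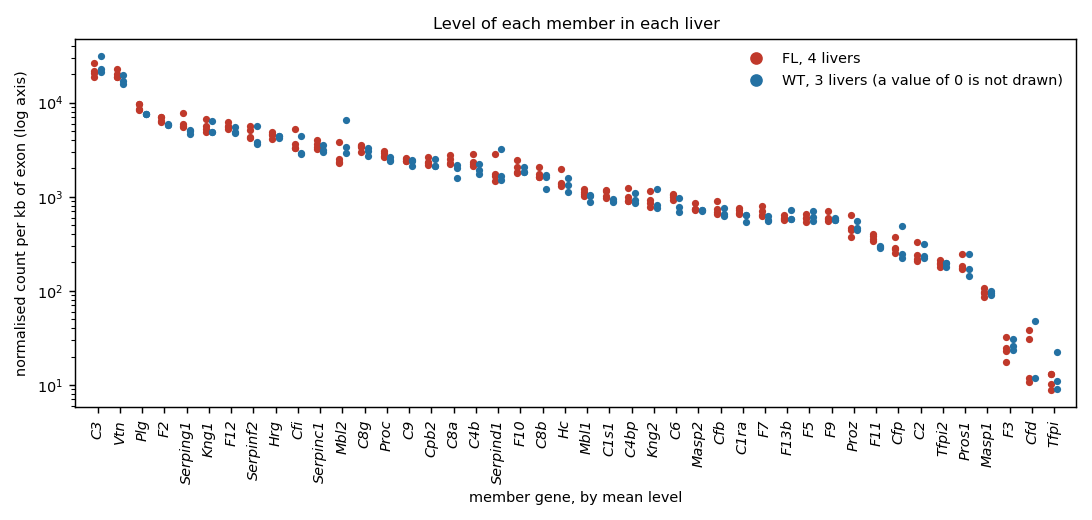
Normalised count per kb of exon (log axis) of each member in each liver, ordered by the mean over the 7 livers, with FL livers in red and WT livers in blue. The members run from C3 with a mean of 23295 to Tfpi with a mean of 12.5, and for most members the FL and WT points overlap. The value of 0 of Cfd in WT2 is not drawn.

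In the classical and lectin pathways the proteases that open the cascade had slightly higher means in FL livers and mannose-binding lectin 2 had a lower one, but none of the 8 members passed the test. Fold changes were above 0 for 6 and below 0 for 2, with a median of 0.13. *C1ra* (C1r, the protease that activates C1s; ENSMUSG00000055172, chr6:124512405-124523443, plus strand) had 1990, 1957, 2270 and 2174 in FL1 to FL4 and 1898, 1626 and 1904 in WT1 to WT3. Every FL liver was above every WT liver, with FL2 and WT3 close to each other. *C1ra* had a log2 fold change of 0.21 (SE 0.11, limma unadjusted p = 0.0826), 0.14 without WT2 and 0.10 without FL3 and WT2. *C1s1* (C1s, which cleaves C4 and C2; ENSMUSG00000038521, chr6:124530345-124542359, minus strand) had 3216, 3033, 3670 and 3559 in FL1 to FL4 and 2794, 2929 and 2783 in WT1 to WT3. Its groups did not overlap, with means of 3369.5 ± 296 over the 4 FL livers and 2835 ± 81.3 over the 3 WT livers (mean ± SD), and its log2 fold change was 0.25 (SE 0.10, limma unadjusted p = 0.0470). Transcripts of *C1ra* shared 56.8% of their 36-base stretches with other genes, mainly *C1rb*, and those of *C1s1* shared 29.6%, mainly with *C1s2*. Few reads were counted for *C1rb*, with normalised counts of 3 to 7 in FL livers and 4 in each WT liver, and *C1s2* was not analysed here. How reads that match several copies entered the counts was not tested.

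*C4b*, the mouse C4 that C1s cleaves (ENSMUSG00000073418, chr17:34728380-34743882, minus strand), had normalised counts of 13447, 12694, 16413 and 11961 in FL1 to FL4 and 12549, 10881 and 9895 in WT1 to WT3. FL3 was the highest liver and WT1 lay among the FL livers. The fold change was 0.29 (SE 0.15, limma unadjusted p = 0.0866), and 44.3% of its 36-base stretches also occur in other genes, chiefly *C4a*. *C2*, the protease that joins C4 in the C3 convertase, had a log2 fold change of -0.05 (95% interval -0.51 to 0.40), with 40.1% shared stretches. The lectin pathway proteases *Masp1* and *Masp2* lay at 0.02 (95% interval -0.22 to 0.27) and 0.09 (95% interval -0.14 to 0.32).

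The mannose-binding lectins, which recognise sugars on microbes and dying cells, lay on opposite sides of 0, with *Mbl2* lower and *Mbl1* higher in FL livers, neither past the test. *Mbl2* (ENSMUSG00000024863, chr19:30232942-30239687, plus strand) had 2473, 2530, 4128 and 2747 in FL1 to FL4 and 3170, 7150 and 3706 in WT1 to WT3. WT2 was far above all other livers, and FL3 was above the other FL livers and above WT1 and WT3. *Mbl2* had a log2 fold change of -0.59 (SE 0.30, limma unadjusted p = 0.0846), with a 95% interval -1.29 to 0.10. Leaving out 1 liver gave values from -0.83 without WT1 to -0.24 without WT2. Without FL3 and WT2 it was -0.41 (unadjusted p = 0.00185, adjusted p = 0.241 from limma), and the remaining FL livers, at 2473 to 2747, were all below the remaining WT livers, at 3170 and 3706. *Mbl1* (ENSMUSG00000037780, chr14:41151458-41159601, plus strand) had 1665, 1773, 1590 and 1893 in FL1 to FL4 and 1646, 1371 and 1587 in WT1 to WT3. Here WT2 was the lowest liver of all and FL3 the lowest FL liver. *Mbl1* had a log2 fold change of 0.17 (SE 0.11, limma unadjusted p = 0.156). The ratio of *Mbl2* to *Mbl1* per kb of exon was 2.06 to 3.74 in FL livers and 2.78, 7.52 and 3.37 in WT1 to WT3, with FL3 above WT1 and WT3.

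The sequences before the starts of these genes are shown because WT2 and FL3 were high in one paralog and low in the other. Each is the 150 bases before the RefSeq transcript start on GRCm38.p6, read 5′ to 3′ on the strand of the gene, and the capitals mark the longest run that both share, of 13 bases.
Mbl1, chr14:41151306-41151455, plus strand: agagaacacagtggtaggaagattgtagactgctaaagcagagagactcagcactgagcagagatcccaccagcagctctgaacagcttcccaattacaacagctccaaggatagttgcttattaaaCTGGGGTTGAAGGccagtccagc
Mbl2, chr19:30232778-30232927, plus strand: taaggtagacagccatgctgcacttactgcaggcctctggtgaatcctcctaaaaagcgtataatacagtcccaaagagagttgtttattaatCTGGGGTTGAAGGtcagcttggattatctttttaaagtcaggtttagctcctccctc
The run began 23 bases before the start of *Mbl1* and 57 bases before the start of *Mbl2*. Of the 43 bases compared on this alignment 33 were identical, a count that includes the 13 bases of the run, which were chosen as identical. No other pair of promoters was compared.

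None of the 4 members at *C3* and in the alternative pathway passed the test, and *C3* and *Cfp* were highest in WT2. *C3* (ENSMUSG00000024164, chr17:57203970-57228136, minus strand) had 107190, 110599, 136872 and 96920 in FL1 to FL4 and 116727, 160718 and 109606 in WT1 to WT3. WT2 and FL3 were the highest livers and the groups overlapped. Its log2 fold change was -0.18 (SE 0.21, limma unadjusted p = 0.410), with a 95% interval -0.67 to 0.30, and ran from -0.29 without WT3 to -0.01 without WT2. *Cfb*, factor B, the protease of the alternative C3 convertase, had a log2 fold change of 0.13 (95% interval -0.18 to 0.43), and 74.9% of its 36-base stretches also occur in *Gm20547*, a gene that overlaps it on the same strand.

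*Cfp*, properdin, which stabilises that convertase and is made by myeloid cells (ENSMUSG00000001128, chrX:20925454-20931555, minus strand), had normalised counts of 483, 501, 646 and 439 in FL1 to FL4 and 431, 853 and 385 in WT1 to WT3. WT2 was above all other livers, with 2.09 times the mean of the other WT livers, where the macrophage markers summed to 2.47 times the mean. FL3 followed with 1.36 times the mean of the other FL livers and 1.41 times their macrophage marker sum. The log2 fold change of *Cfp* was -0.03 (SE 0.28, limma unadjusted p = 0.927), and 0.22 without FL3 and WT2. The part of the macrophage markers in these values was not tested.

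*Cfd*, factor D, also known as adipsin, which cleaves factor B and is made by fat cells (ENSMUSG00000061780, chr10:79890853-79892655, plus strand), was low and uneven, with 35, 28, 11 and 10 in FL1 to FL4 and 11, 0 and 44 in WT1 to WT3. The FL and WT livers overlapped over the whole range, and the log2 fold change of 1.24 had a standard error of 1.18. Without FL3 and WT2 it was -0.04. The other adipocyte markers in the table, *Cidec* and *Fabp4*, summed to 1566 in WT2, 1766 in FL3 and 3061 to 4186 in the other livers. *Adipoq*, *Lep* and *Plin1* were not analysed here. With 2 of 5 listed markers at hand, the sum cannot show the amount of fat, and its part in the *Cfd* values was not tested.

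The terminal components, which form the membrane pore, had higher means in FL livers for all 6 members (median log2 fold change 0.20), although none passed the test and *C9* turned to -0.01 after quantile normalisation. WT2 was the lowest WT liver in 5 of the 6, against 44.3% of all genes tested. *C6* (ENSMUSG00000022181, chr15:4727175-4814967, plus strand) had 3290, 3734, 3814 and 3514 in FL1 to FL4 and 2765, 2459 and 3411 in WT1 to WT3. WT3 lay above FL1, so the groups overlapped. *C6* lay at a log2 fold change of 0.33 (SE 0.13, limma unadjusted p = 0.0382), and 0.19 without FL3 and WT2. *C8a*, the alpha chain of C8 (ENSMUSG00000035031, chr4:104815679-104876398, minus strand), had 9097, 8147, 10100 and 8246 in FL1 to FL4 and 7965, 5743 and 7346 in WT1 to WT3. All FL livers were above all WT livers, with FL3 highest and WT2 lowest. *C8a* had a log2 fold change of 0.35 (SE 0.15, limma unadjusted p = 0.0449), 0.21 without WT2 and 0.15 without FL3 and WT2.

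*C8b*, the beta chain, had a log2 fold change of 0.23 (95% interval -0.13 to 0.60) that was -0.01 without FL3 and WT2. *C8g*, the gamma chain, lay at 0.16 (95% interval -0.10 to 0.43) and *C9*, which polymerises in the pore, at 0.09 (95% interval -0.14 to 0.32). The ratio of *C8a* to *C8b* per kb was 1.314 to 1.53 in FL livers and 1.23 to 1.312 in WT livers, so that the groups did not overlap but FL4 and WT2 nearly met. *Hc*, the mouse C5 (ENSMUSG00000026874, chr2:34983331-35061438, minus strand), differed from the others in WT2: its counts were 8562, 8204, 12361 and 8734 in FL1 to FL4 and 8377, 9960 and 7119 in WT1 to WT3. FL3 was far above the rest and WT2 was second. Its log2 fold change was 0.15 (95% interval -0.27 to 0.57), which was 0.02 without FL3, 0.03 without WT3 and 0.27 without WT2.

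The sequence before the start of *C8a* (RefSeq start, GRCm38.p6, 150 bases, 5′ to 3′ on the strand of the gene) is shown because *C8a* had the largest fold change of the pore components. Capitals mark GTTAAT, a core motif of HNF1, a transcription factor of hepatocytes, with its first base 107 bases before the start.
C8a, chr4:104876399-104876548, minus strand: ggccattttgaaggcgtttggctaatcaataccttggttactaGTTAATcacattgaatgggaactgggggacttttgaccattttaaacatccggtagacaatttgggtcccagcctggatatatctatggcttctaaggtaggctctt

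The complement regulators all had fold changes above 0, with *C4bp* turning to -0.03 after quantile normalisation, and FL3 was the highest FL liver in each of the 3. *Serping1*, the C1 inhibitor, which blocks C1r, C1s and the contact proteases (ENSMUSG00000023224, chr2:84765387-84775444, minus strand), had 13645, 13191, 18019 and 12954 in FL1 to FL4 and 11939, 11635 and 10922 in WT1 to WT3. Every FL liver was above every WT liver, and FL3 was far above the other FL livers. The means were 14452 ± 2395 over the 4 FL livers and 11499 ± 522 over the 3 WT livers (mean ± SD). *Serping1* had a log2 fold change of 0.32 (SE 0.14, limma unadjusted p = 0.0601), 0.21 without FL3, and 0.22 (unadjusted p = 0.0348) without FL3 and WT2.

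*Cfi*, factor I, the protease that inactivates C3b and C4b (ENSMUSG00000058952, chr3:129835884-129875332, plus strand), had 7311, 7337, 11752 and 8086 in FL1 to FL4 and 6520, 9722 and 6360 in WT1 to WT3. FL3 and WT2 were the highest livers and lay above all others. *Cfi* had a log2 fold change of 0.19 (95% interval -0.32 to 0.70), which was 0.04 without FL3 and 0.39 without WT2. Set against *C3* within each liver, *Cfi* per kb was 0.158, 0.154, 0.199 and 0.193 times *C3* in FL1 to FL4 and 0.129, 0.140 and 0.134 times in WT1 to WT3, so that every FL liver had the higher ratio. This ratio was 1 of 17 computed after the levels were known, of which 2 separated the genotypes, and it was given no test. *C4bp*, the C4b-binding protein that acts as a cofactor of factor I, had a log2 fold change of 0.05 (95% interval -0.30 to 0.40).

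In the contact system and the intrinsic pathway, factor XI had the smallest unadjusted p of all members, and the other 4 members lay between 0.01 and 0.17 on the log2 fold change scale. *F11* (factor XI, which activates factor IX; ENSMUSG00000031645, chr8:45241174-45262031, minus strand) had 765, 806, 858 and 899 in FL1 to FL4 and 674, 662 and 637 in WT1 to WT3. All FL livers were above all WT livers, and neither FL3 nor WT2 stood apart. The means were 832 ± 58.7 over the 4 FL livers and 658 ± 18.9 over the 3 WT livers (mean ± SD), and the log2 fold change was 0.34 (SE 0.10, limma unadjusted p = 0.00957), with an adjusted p of 0.999. It stayed between 0.30 and 0.38 in all 19 other settings of the analysis, and was 0.33 without FL3 and WT2.

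The sequence before the start of *F11* (RefSeq start, GRCm38.p6, 150 bases, 5′ to 3′ on the strand of the gene) is shown because *F11* had the smallest p. Capitals mark a match, on the opposite strand, to TTGCNNAA, a motif of the C/EBP factors, with its first base 17 bases before the start.
F11, chr8:45262032-45262181, minus strand: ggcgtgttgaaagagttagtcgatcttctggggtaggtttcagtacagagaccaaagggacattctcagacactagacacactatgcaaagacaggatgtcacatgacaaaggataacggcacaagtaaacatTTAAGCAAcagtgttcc

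*F12*, factor XII, which starts the contact reaction, had a log2 fold change of 0.17 (95% interval -0.10 to 0.44). *Kng1* and *Kng2*, the kininogens from which bradykinin is released, lay at 0.06 (95% interval -0.31 to 0.43) and 0.01 (95% interval -0.45 to 0.47), and both were below 0 after quantile normalisation (-0.15 and -0.03). These paralogs shared 23.4% and 26.9% of their 36-base stretches. Their ratio per kb, *Kng1* to *Kng2*, was 5.79 to 6.34 in FL livers and 5.285 to 6.50 in WT livers. *F9*, factor IX, lay at 0.07 (95% interval -0.19 to 0.32). WT2 and FL3 were each the highest liver of their genotype in 4 of the 5 members.

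In the tissue factor pathway only factor VII had FL and WT livers that did not overlap. *F7* (ENSMUSG00000031443, chr8:13026034-13035809, plus strand) had 1179, 1172, 1469 and 1306 in FL1 to FL4 and 1167, 1053 and 1024 in WT1 to WT3. FL3 and FL4 were highest, and FL2 was barely above WT1. Its log2 fold change was 0.24 (SE 0.12, limma unadjusted p = 0.0727), and 0.16 without FL3 and WT2. *F3*, tissue factor itself, was low, with 62, 82, 58 and 44 in FL1 to FL4 and 60, 65 and 78 in WT1 to WT3. Its livers overlapped fully, and its log2 fold change was -0.16 (95% interval -0.70 to 0.38).

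*Tfpi*, which blocks factor VIIa with tissue factor and is made mainly by endothelium (ENSMUSG00000027082, chr2:84432855-84476775, minus strand), had 71, 48, 72 and 56 in FL1 to FL4 and 49, 121 and 60 in WT1 to WT3. WT2 was far above every other liver, and the others overlapped. The fold change of *Tfpi* was -0.22 (SE 0.32, limma unadjusted p = 0.522), and 0.09 without FL3 and WT2. The 7 sinusoidal endothelial markers summed to 3941 in WT2 and 2796 to 3628 in the other livers, and their part in the *Tfpi* values was not tested. *Tfpi2*, a related protease inhibitor, lay at 0.03 (95% interval -0.22 to 0.29).

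In the common pathway prothrombin was higher in every FL liver than in any WT liver, and the other 3 members lay between -0.08 and 0.09. *F2* (prothrombin; ENSMUSG00000027249, chr2:91625320-91636414, minus strand) had 28949, 29314, 32355 and 32325 in FL1 to FL4 and 26440, 27432 and 26391 in WT1 to WT3. The means were 30736 ± 1858 over the 4 FL livers and 26754 ± 587 over the 3 WT livers (mean ± SD). *F2* had a log2 fold change of 0.20 (SE 0.12, limma unadjusted p = 0.131), which was 0.05 after quantile normalisation. *F10* (factor X) lay at 0.09 (95% interval -0.23 to 0.41), *F5* (factor V, its cofactor) at -0.07 (95% interval -0.35 to 0.22) and *F13b* (the carrier subunit of factor XIII) at -0.08 (95% interval -0.35 to 0.18). In all 4 members WT2 was the highest WT liver and FL3 the highest FL liver, against 28.6% of all genes tested.

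None of the 5 anticoagulant members passed the test, and all 5 were highest in WT2 among WT livers and in FL3 among FL livers. *Serpind1* (heparin cofactor II, an inhibitor of thrombin; ENSMUSG00000022766, chr16:17331371-17343575, plus strand) had 3667, 3216, 6248 and 3823 in FL1 to FL4 and 3299, 7005 and 3674 in WT1 to WT3. WT2 was 2.01 times the mean of the other WT livers and FL3 1.75 times the mean of the other FL livers, while the remaining 5 livers overlapped between 3216 and 3823. The log2 fold change of *Serpind1* was -0.10 (SE 0.31, limma unadjusted p = 0.753), and 0.03 without these livers. *Serpinc1*, antithrombin, the main inhibitor of thrombin and factor Xa, was a more even transcript: WT2 was 1.16 times and FL3 1.17 times the mean of the other livers of its genotype. Its log2 fold change was 0.12 (95% interval -0.19 to 0.44), and -0.04 after quantile normalisation. The ratio of *Serpind1* to *Serpinc1* per kb was 0.433 to 0.524 in FL1, FL2 and FL4, 0.717 in FL3, 0.499 and 0.528 in WT1 and WT3, and 0.892 in WT2.

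The sequence before the start of *Serpind1* (RefSeq start, GRCm38.p6, 150 bases, 5′ to 3′ on the strand of the gene) is shown because this gene and *Mbl2* had the largest values in FL3 relative to the other FL livers. It is all in lower case, since none of the 6 motifs counted in the promoter windows had a match in it.
Serpind1, chr16:17331221-17331370, plus strand: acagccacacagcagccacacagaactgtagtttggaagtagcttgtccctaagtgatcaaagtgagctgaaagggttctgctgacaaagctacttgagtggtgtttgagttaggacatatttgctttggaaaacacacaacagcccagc

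*Proc*, protein C, which inactivates factors V and VIII, had a log2 fold change of 0.18 (95% interval -0.06 to 0.43), and *Pros1*, its cofactor protein S, a value of 0.08 (95% interval -0.40 to 0.55). In WT2 *Pros1* was 1.57 times the mean of the other WT livers. *Proz*, protein Z, the cofactor of an inhibitor of factor Xa, lay at -0.04 (95% interval -0.47 to 0.38).

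The fibrinolysis members all had fold changes above 0 (median 0.18), but *Hrg* and *Cpb2* turned to -0.06 and -0.00219 after quantile normalisation, and none of the 5 passed the test. *Plg* (plasminogen, the precursor of plasmin; ENSMUSG00000059481, chr17:12378608-12419385, plus strand) had 31261, 31854, 35673 and 35770 in FL1 to FL4 and 28235, 28155 and 28430 in WT1 to WT3. The WT livers were close to each other and all FL livers lay above them. The means were 33639.5 ± 2417 over the 4 FL livers and 28273 ± 141 over the 3 WT livers (mean ± SD). *Plg* had a log2 fold change of 0.25 (SE 0.12, limma unadjusted p = 0.0758), which was 0.05 after quantile normalisation.

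*Serpinf2*, alpha-2-antiplasmin, the inhibitor of plasmin, had a log2 fold change of 0.18 (95% interval -0.25 to 0.62). WT2 was 1.51 times the mean of the other WT livers in this gene, and without FL3 and WT2 the fold change was 0.30 (unadjusted p = 0.0159, adjusted p = 0.382 from limma). *Vtn*, vitronectin, which stabilises plasminogen activator inhibitor 1, lay at 0.20 (95% interval -0.14 to 0.54). *Cpb2*, the carboxypeptidase that removes plasminogen binding sites from fibrin, lay at 0.07 (95% interval -0.20 to 0.34), and *Hrg*, histidine-rich glycoprotein, which binds plasminogen and heparin, at 0.05 (95% interval -0.19 to 0.29).

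**Figure D3:**
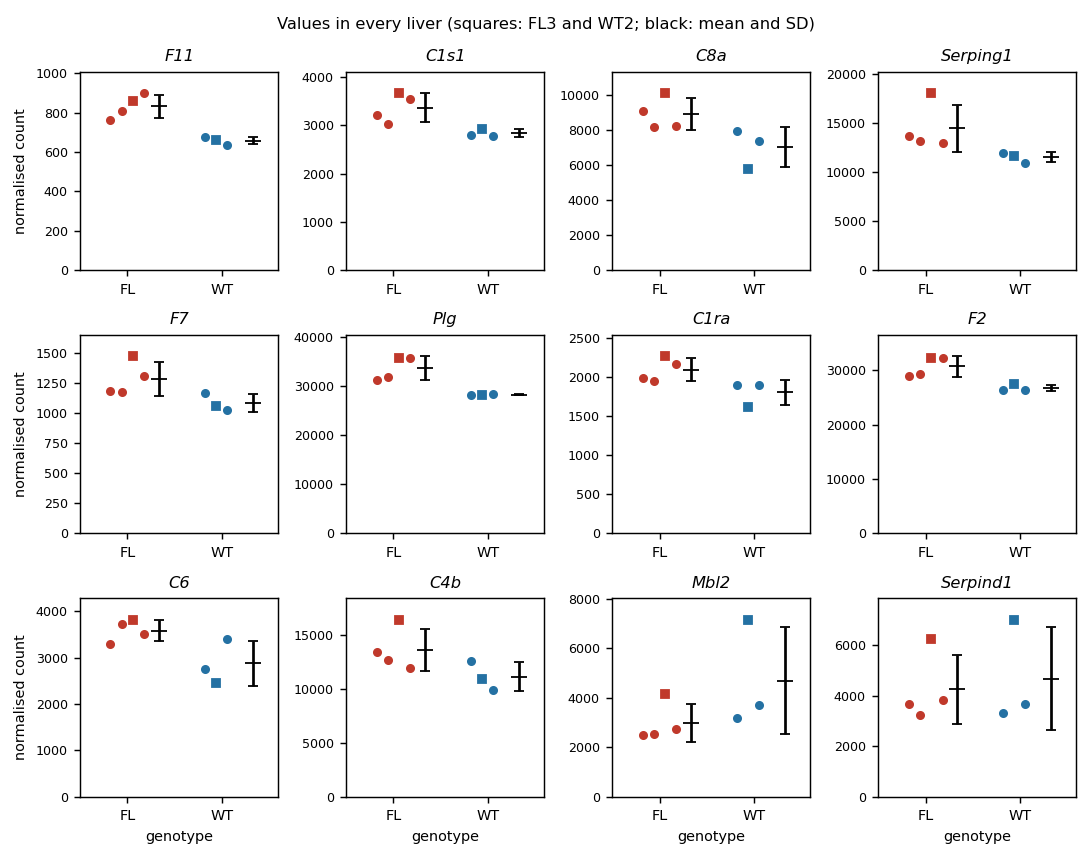
Normalised counts in every liver of 12 members (linear axes from 0), with FL livers in red and WT livers in blue, squares for FL3 and WT2, and the mean and SD of each genotype in black. In F11, C1s1, C8a, Serping1, F7, Plg, C1ra and F2 every FL liver is above every WT liver, and in Mbl2 and Serpind1 the squares lie far above the other livers of their genotype.

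The members varied between livers of the same genotype mainly through WT2 and FL3. FL3 was the highest FL liver in 37 of the 44 members and the lowest in 2, against 35.0% and 34.5% of all genes tested. WT2 was the highest WT liver in 28 members and the lowest in 10, against 45.5% and 44.3%. Both were highest in 27 members (28.6% of all genes tested), of which 18 were among the 23 coagulation and fibrinolysis members and 9 among the 21 complement members. WT2 was lowest and FL3 highest in 6 members (3.33% of all genes tested), 4 of them terminal components, and both were lowest in 2, *Mbl1* and *C8g* (28.8%). The median member was 0.25 higher on the log2 scale in FL3 than the mean of the other FL livers and 0.15 higher in WT2 than the mean of the other WT livers, beside 0.01 and 0.02 over all genes tested. The hepatocyte markers summed to 1.17 times in FL3 and 1.14 times in WT2 the mean of the other livers of the genotype. Without *Alb* the sum was 276350 in WT2, below WT1 (300035) and WT3 (300618), and 393518 in FL3, within the other FL livers (335685 to 421609). *Cyp2e1* was at 0.388 times in FL3 and 0.157 times in WT2 and *Asgr1* at 0.838 and 0.766 times, each lowest of its genotype in these livers. *Ass1* was at 1.75 and 1.78 times, *Cps1* at 1.15 and 1.19 times and *Alb* at 1.21 times in both, each highest of its genotype. *Ttr* was highest in WT2 but not in FL3, and *Apoa1* was lowest in WT2 and highest in FL3.

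**Figure D4:**
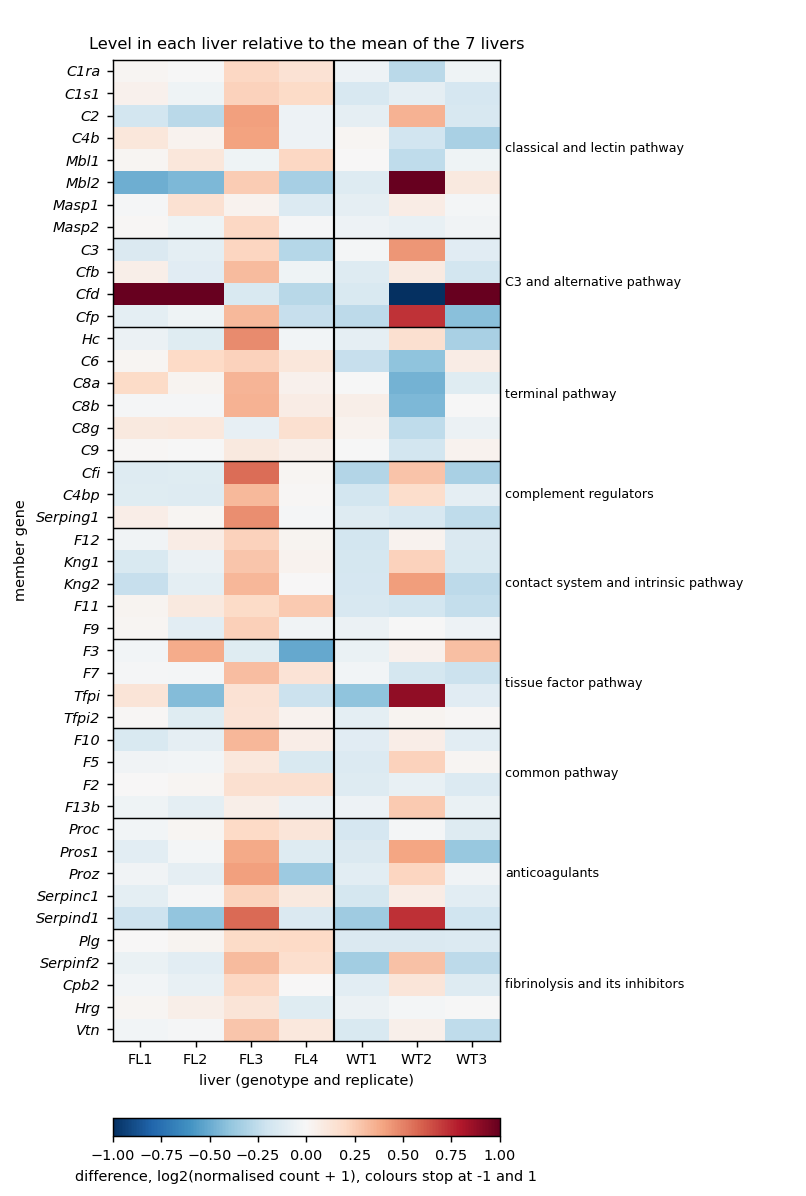
Difference of each member in each liver from its mean over the 7 livers, in log2(normalised count + 1), with red above and blue below the mean and colours that stop at -1 and 1. Members are in cascade order, FL livers left of the line and WT livers right. The FL3 column is the highest FL value in 37 of the 44 members, and in WT2 the terminal components C6, C8a, C8b, C8g and C9 are blue where most coagulation members are red.

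**Figure D5:**
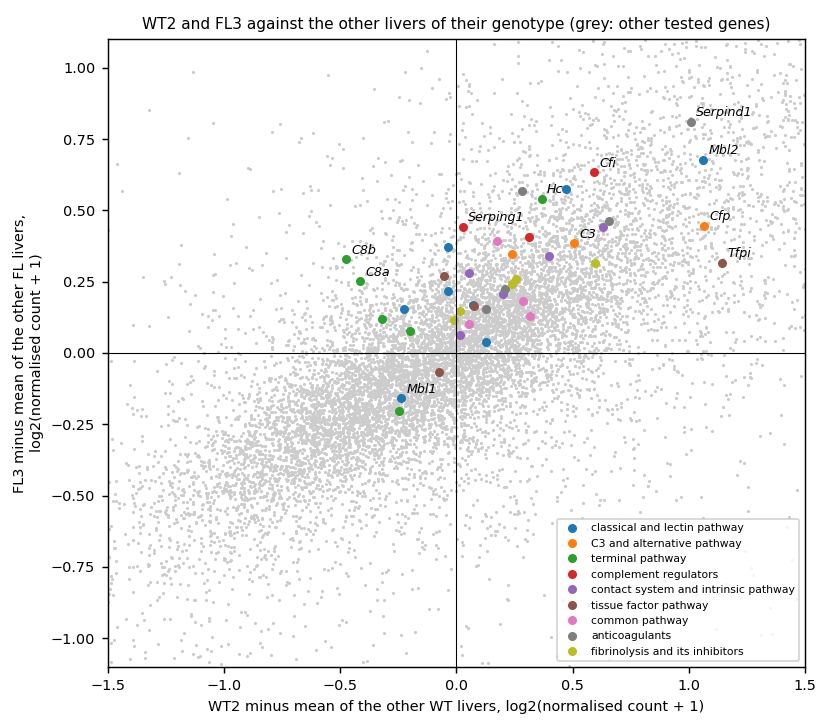
For each member, the difference of WT2 from the mean of the other WT livers (horizontal) against that of FL3 from the mean of the other FL livers (vertical), in log2(normalised count + 1), coloured by role, with the other tested genes in grey. Serpind1, Mbl2, Cfp and Tfpi lie far to the right, C8a and C8b lie upper left and Mbl1 lower left. Of all genes tested 1345 lie outside the axes, among them 1 member, Cfd.

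Without FL3 and WT2 the members' counts changed. Every remaining FL liver was above every remaining WT liver in 21 members and below in 1, *Mbl2*, where 12.7% of all genes tested were above and 14.6% below. Of the 33 members with a mean of at least 1601, 17 were above (51.5%) and 1 below (3.03%), against 22.9% and 15.3% of the 1567 abundant genes. Still 0 members passed an adjusted p under 0.05 in limma (0.0487% of the genes tested), and 7 had an unadjusted p under 0.05 (9.74% of the genes tested): *Mbl2*, *F11*, *Serpinf2*, *Cfi*, *C1s1*, *Serping1* and *Proc*. Of these only *Mbl2* had the lower mean in FL livers.

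RefSeq promoter windows, from 250 bases before to 50 after each start, were at hand for 35 of the 44 members, in 40 windows because some genes have more than 1 start. GTTAAT, the HNF1 core motif, was in 12 of the 40 windows (30%), in either strand, against 7.1% of 32851 mouse promoter windows. These windows belonged to 11 of the 35 members, because overlapping windows of *Tfpi2* hold the same site. TTGCNNAA, of the C/EBP factors, was in 10 windows (25%, against 10.8%), TTCNNNGAA, of the STAT factors, in 6 (15%, against 8.3%), and the TATA box TATAAA also in 6 (15%, against 13.6%). CAAAGTCCA, of HNF4, was in 0 windows (against 0.475%). The decamer of the p53 motif was in 5 windows (12.5%, against 8.36%), those of *F13b*, *F5*, *Proz*, *F12* and *Hrg*. Matches of different motifs did not overlap each other in the members' windows. The fold changes of these 5 genes ran from -0.08 to 0.17, none passed the test, and none had FL and WT livers that did not overlap. A match is a string of letters in these windows and not a measured binding site.

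Among other genes of the same pathways the 3 fibrinogen chains had the highest fold changes, but none passed the test. Of 56 listed, 52 were in the table and 43 were tested. None passed an adjusted p under 0.05 in limma (0 of 43), and 1 had an unadjusted p under 0.05, *Fgg*. Fold changes were above 0 for 21 and below 0 for 22, with a median of -0.02. *Fgg*, the gamma chain of fibrinogen, had 41397, 38237, 46904 and 43808 in FL1 to FL4 and 32453, 39118 and 26359 in WT1 to WT3. WT2 lay among the FL livers, and WT1 and WT3 lay below all of them. *Fgg* had a log2 fold change of 0.40 (SE 0.17, limma unadjusted p = 0.0470), beside 0.43 for *Fga* and 0.34 for *Fgb*, the other fibrinogen chains (unadjusted p = 0.0808 and 0.0764). The 3 chains together took 0.903% to 1.15% of the normalised counts in FL livers and 0.659% to 1.135% in WT livers.

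In 3 of these 43 genes every FL liver was above every WT liver, against 2.77% of all genes tested. The share was 5.42% among the 1567 abundant genes, with means of at least 1601, and of the 3 only *Lman1* reached such a mean. *C1qbp*, a mitochondrial protein that binds C1q, had 1372, 1336, 1374 and 1511 in FL1 to FL4 and 1167, 1308 and 1194 in WT1 to WT3. *Vkorc1*, the reductase that recycles vitamin K for the carboxylation of factors II, VII, IX and X, had 1214, 1187, 1367 and 1252 in FL1 to FL4 and 1072, 1105 and 1111 in WT1 to WT3. *Lman1*, the cargo receptor that carries factors V and VIII out of the endoplasmic reticulum, had 4345, 4423, 4441 and 4390 in FL1 to FL4 and 4284, 3652 and 4291 in WT1 to WT3. Their log2 fold changes were 0.19, 0.19 and 0.11. The C1q chains, made by macrophages, were highest in WT2: *C1qa* was 2.56 times, *C1qb* 2.59 times and *C1qc* 2.87 times the mean of the other WT livers, with fold changes of -0.19, -0.28 and -0.19. *Cd46*, a complement cofactor of the cell surface, was too low for the test, with 6, 7, 4 and 6 in FL1 to FL4 and 1, 3 and 3 in WT1 to WT3.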

How the data were processed

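Liver RNA of 4 FL and 3 WT mice was analysed, with groups and replicate numbers taken from the sample labels. Per the labels and the study's methods, stranded polyadenylated RNA libraries were read from both ends and the authors aligned the reads with TopHat2 2.0.13 and Bowtie2 2.2.6.0, counted them per gene (HTSeq 2.2.4.0 and featureCounts are both named) and normalised the counts with DESeq2. The sources name the build by a human build's name, and the mouse build is not given in the sources used here. The deposited values are these normalised counts, which the authors rounded to whole numbers, so their unit is a score and not counts. Rounding hides the reads, so no test on counts was run. The table had 14988 rows for 14851 identifiers, of which 120 stood on more than 1 row with identical values, and 0 per-sample columns were left unused. The reads on genes, 11.9 to 19.5 M per liver, were estimated from the spacing of low values, and precision was limited by the spread between livers: a chi-square test of livers of 1 genotype gave 8.64 to 115 per degree of freedom, so no library was a repeat.

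Symbols, positions and exon lengths came from GENCODE vM21 (GRCm38), and promoter windows from RefSeq (GRCm38.p6). FL and WT livers were compared over the 12545 genes with a mean of at least 10 by limma 3.58.1 in R 4.3.3, with eBayes and a trend on log2(normalised count + 1), two-sided, with Benjamini-Hochberg adjustment and a threshold of 0.05. Fold changes on this scale understate low genes. The fit was tested on simulated data with a spread taken without FL3 and WT2 and drawn independently for each gene and liver. That test does not cover the spread that these 2 livers add. Tables and figures used Python 3.11.15, pandas 2.3.3, NumPy 2.4.6 and Matplotlib 3.10.9. Values in every liver were given for members whose groups did not overlap, the 10 with the smallest p, those with the highest and lowest level per kb, and the 6 with the largest range. *Mbl1*, *Hc*, *F3* and 2 of the fibrinogen chains were added after their values were seen. The members, lists and rules were chosen with earlier results of these data known. Other pseudocounts, filters, scalings, limma options, array weights, the replicate number as a block and the omission of livers were the alternatives.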

Additional observations from a re-analysis of the deposited data

Results flagged for a closer look

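In 3 of the 44 members 1 FL liver stood far from the other FL livers, and each time it was FL3, above the rest. *Mbl2* had a normalised count of 4128 in FL3 and 2473 to 2747 in the other FL livers, so that the gap to the nearest liver was 0.834 of the whole range. *Hc* had 12361 in FL3 and 8204 to 8734 in the others, a gap of 0.873 of the range. *Serping1* had 18019 in FL3 and 12954 to 13645 in the others, a gap of 0.864 of the range. Each gap is past Dixon's 95% critical value for a group of 4. Chance alone sets apart about 1 in 20 independent groups, or 2.2 of 44 members, and the 3 found are near that number. FL3 stood apart over all genes and the members are not independent, so 2.2 is a nominal reference. The share of all genes with such a gap was not taken. A group of 3 is too small for this measure, so the WT livers were not examined.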

How the results depend on the processing

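The count of members past an adjusted p under 0.05 was 0 in all 19 other settings, as was that of the other pathway genes, and the lowest adjusted p of a member was 0.154. Of 834 fold changes of members over these settings, 786 kept the direction reported and 48 did not, and 23 of the 44 members kept it in every setting. Members above 0 numbered 26 to 40. Among all genes tested 2 passed, and 0 did with pseudocount 5, with genes kept only at 10 or more in each liver or at a mean of 50, or with no trend, 1 after quantile normalisation, 5 with array weights, 6 without FL3 and WT2, and 0 to 5 without 1 liver (5 without WT3, 1 without FL3 and 0 without each of the others). Genes with an unadjusted p under 0.05, reported as 401, numbered 1512 with array weights, 1200 without FL3 and WT2, and 248 to 739 without 1 liver (739 without WT2, 262 without FL2 and 248 without FL4). For the members this count, reported as 4, was 1 after quantile normalisation and 1 without trend, 13 with array weights, 7 without FL3 and WT2, and 1 to 3 without 1 liver (1 without FL4, 2 without each of FL1, FL2 and FL3). Members with every FL liver above every WT liver, reported as 8, numbered 2 after quantile normalisation, 21 without FL3 and WT2, and 9 to 19 without 1 liver (19 without WT2), and those with every FL liver below, reported as 0, numbered 1 without FL3 and WT2 and 0 to 1 without 1 liver (1 without FL3). Fewer livers make non-overlap more frequent by construction, and the cause of the other changes was not tested. Beside the reported fit, the share of all genes without overlap was taken only without FL3 and WT2.

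The fold changes that turned their direction were, after quantile normalisation, -0.016 for *Masp1*, -0.0084 for *C9*, -0.032 for *C4bp*, -0.15 for *Kng1*, -0.033 for *Kng2*, -0.043 for *Serpinc1*, -0.0022 for *Cpb2*, -0.063 for *Hrg*. They were, with array weights, -0.16 for *Cfd*, 0.27 for *Cfp*, 0.014 for *Tfpi*, -0.0071 for *Tfpi2*, 0.020 for *Serpind1*. They were, without FL3 and WT2, -0.043 for *Cfd*, 0.22 for *Cfp*, -0.0087 for *C8b*, 0.085 for *Tfpi*, 0.032 for *Serpind1*. Without 1 liver, fold changes ran from -0.20 to 0.10 for *C2*, from -0.027 to 0.070 for *Masp1*, from -0.27 to 2.48 for *Cfd*, from -0.24 to 0.33 for *Cfp*, from -0.050 to 0.16 for *C4bp*, from -0.025 to 0.19 for *Kng1*, from -0.12 to 0.22 for *Kng2*, from -0.0037 to 0.11 for *F9*, from -0.48 to 0.16 for *Tfpi*, from -0.0077 to 0.080 for *Tfpi2*, from -0.0080 to 0.15 for *F10*, from -0.15 to 0.031 for *F5*, from -0.14 to 0.023 for *F13b*, from -0.093 to 0.30 for *Pros1*, from -0.19 to 0.069 for *Proz*, from -0.31 to 0.23 for *Serpind1*.

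The replicate numbers 1 to 3 occur in both genotypes, but on different mice, and nothing in the sources pairs these. The deviations of same-numbered livers from their group means correlated by 0.44, -0.48 and -0.66. Only replicate 1 of the FL livers correlated best with its own number. WT2 and FL3, which stood apart from the other livers, weigh on these values, so they cannot show whether the numbers pair the livers. With the replicate number as a block, FL4 has no pair, 0 genes passed, 110 had an unadjusted p under 0.05, and 0 members did. In that fit the direction turned for *Cfp* (0.048) and *Proz* (0.069).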
